A study of Oryza sativa with 35 samples.

Results

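The transcriptomes of DC90 and 9311 were compared at 84 h, that is, after 3 days of chilling followed by 12 h of recovery. The comparison used 5 of the 35 RNA-Seq libraries of the series, which cover both genotypes at 6 timepoints, namely 3 libraries of DC90 (written W9 in the sample titles, replicates 1, 2 and 3) and 2 libraries of 9311 (replicates 1 and 3). 9311 is a chilling-sensitive *indica* variety, and DC90 is a chilling-tolerant line with the 9311 background that carries the wild rice (*Oryza rufipogon*) locus *CTS-12*. Both groups were whole plants, 30 days old when chilling at 10/8°C (day/night) began. As a model of *CTS-12*, DC90 is 1 introgression line, so any further wild rice segment it carries cannot be told apart from the locus. The labels do not say whether the libraries of a group came from separate plants, so p-values measure only the spread between libraries, which may be technical. That spread was estimated within the 12 groups of all 35 libraries, and not from the 5 libraries at 84 h alone.

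Recovery from chilling is the period in which rice seedlings restart photosynthesis and growth and in which cold-induced programmes are switched off. Chilling in light leaves the photosynthetic antenna absorbing more energy than the leaf can use, and the xanthophyll cycle and early light-inducible proteins are known for dissipating that excess. Defence-type regulators, such as WRKY and ethylene-responsive transcription factors, cysteine-rich receptor-like kinases and NDR1/HIN1-like proteins, are also known to respond quickly to cold, wounding and oxidative stress. An introgression line adds a fixed layer to this, since loci inside the exchanged segment carry other alleles, and reads of a diverged or absent allele may not be counted on the locus.

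At 84 h, 154 of the 22961 loci tested (0.671%) were called between the genotypes, that is, had at least a doubling or halving of level (1 on the log2 scale) and an adjusted p no larger than 0.05 (quasi-likelihood test of edgeR, adjusted by the Benjamini-Hochberg method). Of these, 63 loci (0.274% of those tested) were higher and 91 (0.396%) were lower in DC90. All fold changes are DC90 over 9311, levels are CPM (counts scaled to the library's TMM-adjusted total) unless FPKM is named, and the median log2 fold change over all loci tested was 0.03. Of all loci tested, 12074 had a log2 fold change above 0 and 10860 below. The libraries of both genotypes did not overlap for 152 of the 154 loci. As calling favours such loci, this is a description and adds no support to the calls. An unadjusted p under 0.05 was found for 1931 loci.

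The libraries held 28004101 to 51890451 counts, DC90 replicate 2 having the fewest, and no pair of them was identical. Pearson correlations of log2 CPM across loci ran from 0.895 to 0.961, and 9311 replicate 3 stood apart, with 0.895 to 0.926 to the other libraries. Without 9311 replicate 3, 63 loci were called, 55 of them among the 154, and without 9311 replicate 1, 309 were called, 121 of them among the 154. The genotype labels were checked with 17 loci read only in DC90 and 13 read only in 9311 at 0 and 96 h, libraries not compared here. At 84 h, each DC90 library had more than 3 counts on 17 of 17 DC90-only loci and 0 of 13 9311-only loci, and each 9311 library had them on 1 of 17 and 13 of 13. Markers of leaf (*LHCB1.1*, *LHCB1.2*, *RBCS2* and *RCA*) and of root (*RCc3*, *LSI1*, *LSI2*, *NRT2.1* and *IRT1*) were read, none of them at 0 in all 5 libraries. The 4 leaf markers summed to 735 to 1940 FPKM in DC90 and 371 to 748 FPKM in 9311, and the 5 root markers summed to 45.3 to 147 FPKM in DC90 and 35.1 to 56.6 FPKM in 9311. In such whole-plant RNA, fewer cells of a type and less RNA per cell cannot be told apart.

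The first question was where the called loci lie. Chromosome 12, as given by the locus ID, held 74 of the 154, which is 6.05% of its 1223 tested loci, 43 of them higher and 31 lower in DC90. Chromosomes 1 to 11 held 66, 14 higher and 52 lower, with shares of the tested loci between 0.0699% on chromosome 8 and 0.568% on chromosome 3. A further 14 called loci were gene models that the authors added and whose IDs carry no chromosome. Along chromosome 12, the first and last loci called at 84 h that were also called at 0 and 96 h were LOC_Os12g04595 and LOC_Os12g36580. Of the 664 tested loci between these bounds, which the calls themselves set, 72 (10.8%) were called and 592 were not. Beyond them, only LOC_Os12g03110, annotated as mini zinc finger protein 2, and LOC_Os12g04150, annotated as carboxylesterase 17, were called among 559 tested loci, and both were lower in DC90.

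**Figure D1:**
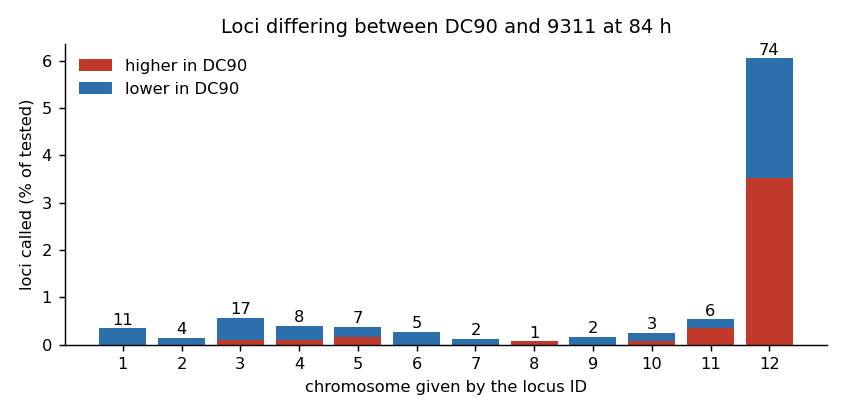
Bars give the share of tested loci called between DC90 and 9311 at 84 h on each chromosome, as a percentage, split into loci higher (red) and lower (blue) in DC90. Numbers above the bars are called loci; chromosome 12 has 74 (6.05%), and no other chromosome passes 0.568%.

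**Figure D2:**
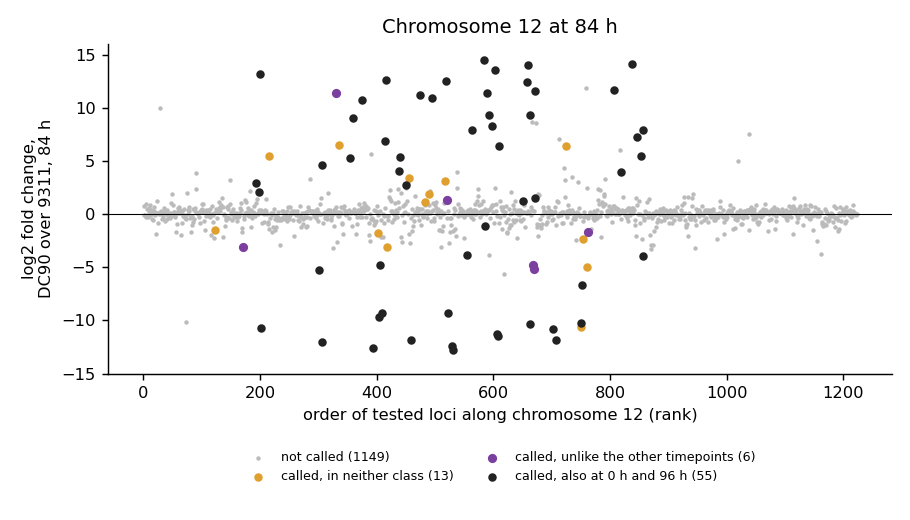
Each point is 1 of the 1223 tested loci of chromosome 12 in the order of its ID, with its log2 fold change (DC90 over 9311) at 84 h on the vertical axis. The 55 loci also called at 0 and 96 h (black) lie above and below 0 and stand among uncalled loci (grey), 592 of which fall between LOC_Os12g04595 and LOC_Os12g36580.

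Many of these differences were not particular to recovery. Of the 154 loci, 78 were also called with the same sign at 0 h, before chilling, and at 96 h, after 24 h of recovery. These 78 are called the 0 and 96 h shared differences below, or shared differences for short. Of them, 46 were higher and 32 lower in DC90, and 55 lay on chromosome 12. They were not of 1 size over time, since the 46 had a median log2 fold change of 9.49 before chilling and of 2.16, 3.16 and 6.67 after 12, 24 and 72 h of it, with 10, 20 and 44 of them called at those 3 timepoints. At 12 h, however, the 9311 libraries were read on 12, 14 and 13 of the 17 DC90-only loci. At 24 and 72 h, single 9311 libraries were read on up to 13 and 9 of them. The part of these reads in the smaller medians and in the smaller overlap of calls at 12 and 24 h was not tested. In recovery the median of the 46 was 9.32 at 84 h and 9.11 at 96 h. The 32 lower loci had medians between -9.93 and -7.81 over the 6 timepoints. Compared with single timepoints, 82 of the 154 (53.2%) were called with the same sign at 0 h, which is 63.1% of the 130 loci called there (0.566% of those tested), and 86 (55.8%) at 96 h, which is 58.9% of the 146 called there (0.636%). At 72 h, the end of chilling, 87 of the 154 (56.5%) were called with the same sign, 10.1% of the 863 called there (3.76%). The overlap was smaller earlier in chilling, with 43 of the 154 (27.9%) called with the same sign at 12 h, or 51.8% of the 83 called there (0.361%), and 53 (34.4%) at 24 h, or 30.8% of the 172 called there (0.749%). These comparisons share no library. On chromosome 12, the share of the 84 h calls that were also called at 0 h was 78.4%, and on chromosomes 1 to 11 it was 18.2%.

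Among the shared differences on chromosome 12, the loci higher in DC90 were often not read at all in 9311. LOC_Os12g27370, annotated as a replication protein A 70 kDa subunit, a single-stranded DNA-binding protein of replication and repair, had 46.5, 45.0 and 54.6 CPM in DC90 and no count in either 9311 library. Its level in DC90 was at least 868-fold higher, set against a floor of 3 counts per library (adjusted p = 0.0006). LOC_Os12g16290, an isoflavone reductase homolog, had 21.3, 11.0 and 17.6 CPM in DC90 and 0 in both 9311 libraries, at least 296-fold higher (adjusted p = 0.00032). Both loci separate the genotypes completely, and both were called at 0 and 96 h too.

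LOC_Os12g28520, annotated as late embryogenesis abundant protein D-34, a class of proteins known for protecting cells during drying, had 6.19, 5.52 and 14.7 CPM in DC90 and 0 in both 9311 libraries. It was at least 157-fold higher (adjusted p = 0.0065), but the call was lost without either 9311 library (adjusted p = 0.058 without replicate 1 and 0.18 without replicate 3). With the D-34 annotation too, LOC_Os03g06360, LOC_Os06g23350 and LOC_Os09g28860 had log2 fold changes of -0.53, -3.83 and -0.57, none of them called. LOC_Os12g08670, annotated as FT-interacting protein 1, which in Arabidopsis carries the flowering signal FT to the phloem, had 5.98, 4.47 and 4.43 CPM in DC90 and 0 in both 9311 libraries, at least 88.3-fold higher (adjusted p = 0.0011). Other tested loci annotated as FT-interacting protein 1 had log2 fold changes from -0.60 to 0.32. LOC_Os12g19100, a phytochrome A-associated F-box protein, had 0.546, 0.994 and 0.505 CPM in DC90 and 0 in both 9311 libraries, at least 12.1-fold higher (adjusted p = 0.0013). LOC_Os12g21950, annotated as U-box domain-containing protein 25, of a family of ubiquitin ligases, had 1.08, 0.331 and 1.22 CPM in DC90 and 0 in both 9311 libraries, at least 15.6-fold higher (adjusted p = 0.013), a call lost without either 9311 library. LOC_Os12g28520, LOC_Os12g08670, LOC_Os12g19100 and LOC_Os12g21950 had no count in 9311, but none of them passed 14.7 CPM in a DC90 library.

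LOC_Os12g08025, a basic helix-loop-helix transcription factor (bHLH153), had 24.9, 44.3 and 41.0 CPM in DC90 and 0 and 0.148 CPM in 9311, a log2 fold change of 9.01 (SE 1.25, adjusted p = 0.00011). LOC_Os12g10280, annotated as aquaporin NIP3-3, a membrane channel for water and small solutes, had 9.23, 14.1 and 12.8 CPM in DC90 and 0.147 and 0.0422 CPM in 9311, a log2 fold change of 6.90 (SE 1.23, adjusted p = 0.003). Of 30 tested aquaporins, 9 had a log2 fold change above 0 and 21 below, with a median of -0.50. Over all loci tested, 0.274% were called higher, and this locus was the only aquaporin called. Without 9311 replicate 3 its call was lost and the median was -0.07.

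LOC_Os12g07830, annotated as chloroplastic L-ascorbate peroxidase 5, an enzyme that removes hydrogen peroxide with ascorbate, had 21.8, 29.0 and 28.3 CPM in DC90 and 0.882 and 0.464 CPM in 9311. Its log2 fold change was 5.28 (SE 0.74, adjusted p = 0.00011). Among 107 tested peroxidases it was the only locus called by edgeR (2 by DESeq2, 5 by limma). Over all loci tested, 0.274% were called higher. The median over those 107 was -0.40, and it was -0.21 without 9311 replicate 3. Another metabolic locus, LOC_Os12g12470, annotated as an NADP+-dependent 2-alkenal reductase that detoxifies reactive carbonyls, had 12.1, 7.37 and 9.66 CPM in DC90 and 1.70 and 1.16 CPM in 9311 (log2 fold change 2.76, SE 0.59, adjusted p = 0.017). LOC_Os12g12580, with the same annotation, had 23.8, 25 and 38.7 CPM in DC90 and 3.14 and 2.34 CPM in 9311 (log2 fold change 3.41, SE 0.65, adjusted p = 0.006), and it is not among the shared differences. Their calls were lost without 9311 replicate 3, and that of LOC_Os12g12470 also without DC90 replicate 1 or 9311 replicate 1. These 3 loci fall outside the rule for named genes and were chosen after their values were seen.

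The shared differences lower in DC90 on chromosome 12 included 2 annotated disease resistance proteins, the intracellular receptors that detect pathogen effectors. LOC_Os12g17090 (RPM1-type) had no count in any DC90 library and 15.2 and 16.1 CPM in 9311, at least 260-fold lower than in 9311 (adjusted p = 9.1e-06). LOC_Os12g30760 had no count in DC90 and 14.4 and 7.07 CPM in 9311, at least 178-fold lower (adjusted p = 3.1e-06). These were the only 2 called among 190 tested loci with disease resistance annotations, whose median log2 fold change was 0.02. Over all loci tested, 0.396% were called lower.

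LOC_Os12g30490, annotated as chloroplastic 50S ribosomal protein L4, a subunit of the plastid ribosome, had no count in DC90 and 4.97 and 5.48 CPM in 9311, at least 86.8-fold lower than in 9311 (adjusted p = 3.1e-06). With the same annotation, LOC_Os03g15870 had 212 CPM in DC90 and 180 CPM in 9311 (log2 fold change 0.23). LOC_Os11g37510, also annotated so, had 22.4 CPM in DC90 and 21.4 CPM in 9311 (log2 fold change 0.07). LOC_Os12g09630, annotated as the oxidative signal-inducible kinase OXI1, had no count in DC90 and 1.09 and 3.54 CPM in 9311, at least 38.5-fold lower (adjusted p = 0.00052), and LOC_Os12g09720 (GOS9) had none in DC90 and 2.52 and 1.16 CPM in 9311, at least 30.5-fold lower (adjusted p = 0.0015). LOC_Os12g06870, annotated as the nuclear pore protein NUP98A, was read in all libraries, at 0.516, 0.773 and 0.383 CPM in DC90 and 23.1 and 20.2 CPM in 9311. Its log2 fold change was -5.29 (SE 0.58, adjusted p = 3.1e-06), while LOC_Os12g06890, the next tested locus with the same annotation, had a log2 fold change of 0.03, at 67.4 CPM in DC90 and 66.1 CPM in 9311.

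One neighbouring pair moved in opposite directions and is uncertain for that reason. LOC_Os12g07010, annotated as 60S ribosomal protein L3, had 0.182, 0 and 0.0697 CPM in DC90 and 341 and 446 CPM in 9311, a log2 fold change of -11.98 (SE 1.97, adjusted p = 0.0013). The next locus, LOC_Os12g07020, annotated as a 5-formyltetrahydrofolate cyclo-ligase-like protein, had 536, 510 and 477 CPM in DC90 and 22.3 and 19.5 CPM in 9311, a log2 fold change of 4.6 (SE 0.55, adjusted p = 9.1e-06). Summed over the pair, the levels were 508 ± 29.6 CPM in DC90 (SD, n = 3) and 414 ± 71.7 CPM in 9311 (SD, n = 2). LOC_Os11g06750, on chromosome 11 and also annotated as ribosomal protein L3, had a log2 fold change of 0.23 (adjusted p = 0.95), at 374 CPM in DC90 and 318 CPM in 9311. How reads aligned to several loci were counted is not given in the sources used here.

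Shared differences also lay off chromosome 12. LOC_Os11g17300, annotated as FAR1-RELATED SEQUENCE 5, had 4.19, 7.54 and 5.32 CPM in DC90 and 0 in both 9311 libraries, at least 101-fold higher (adjusted p = 0.0021). The locus before it, LOC_Os11g17290, with no described function, averaged 30.9 CPM in DC90 and was not read in 9311 (adjusted p = 0.0057). LOC_Os11g18670, annotated as polyubiquitin 9, had 0.622, 2.02 and 1.32 CPM in DC90 and 0 in both 9311 libraries, at least 23.5-fold higher (adjusted p = 0.0012). The calls of both named loci were lost without 9311 replicate 3. In all, chromosomes 1 to 11 held 12 shared differences, 7 higher and 5 lower in DC90.

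The second question was which differences belong to 84 h. The difference at 84 h departed from the difference at 0 h for 192 loci (0.836%), 16 upward and 176 downward in DC90, and from the mean of the 5 other timepoints for 172 loci (0.749%), again 16 upward and 156 downward (0.679%). Of the 154 called loci, 51 passed the test against the other timepoints. One of these, LOC_Os12g18729, belongs to the shared differences and is left out of what follows. The other 50 are called the recovery differences, 6 higher and 44 lower in DC90, and 43 of the 50 lay on chromosomes 1 to 11, 4 higher and 39 lower. Set against the mean of 0 and 96 h alone, a comparison added after the values were seen, 3 loci passed the test (0.0131%), 2 upward (0.00871%) and 1 downward (0.00436%), of which 2, LOC_Os05g32860 and LOC_Os01g14410, were among the called loci. That comparison leaves out 12, 24 and 72 h, where some 9311 libraries were read on DC90-only loci, namely on 12, 14 and 13 of 17 at 12 h, 1, 13 and 11 at 24 h and 1, 9 and 2 at 72 h. The counts also moved with every single library left out. Without DC90 replicates 1, 2 and 3, the test against 0 h passed 40, 37 and 89 loci. The test against the 5 other timepoints then passed 23, 51 and 62. Both counts fell without 9311 replicate 3 and rose without 9311 replicate 1, fits that leave 1 library of 9311 at 84 h.

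For the 44 loci lower in DC90, the median log2 fold change was -2.21 at 84 h. It was 0.72 before chilling, 0.26 to 0.52 at the 3 timepoints of chilling and -0.45 at 96 h. At 0 h, 37 of the 44 had a log2 fold change above 0. As these loci were chosen for this contrast, the course is a description. The median level over the 44 loci in DC90 was 17.5 CPM before chilling, 41.2 CPM at 24 h and 19.8 CPM at 72 h, then 4.61 CPM at 84 h and 6.35 CPM at 96 h. In 9311 it was 9.77 CPM before chilling, 27.3 CPM at 24 h and 19.0 CPM at 72 h, then 25.7 CPM at 84 h and 10.4 CPM at 96 h. By these medians, levels at 84 h were below those at 72 h in DC90 and not in 9311. The 9311 levels at 84 h are means of 2 libraries that differed, replicate 3 being mostly above replicate 1. Single 9311 libraries were not set against 72 h.

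These 44 loci moved with 9311 replicate 3. It was above replicate 1 for 41 of them, and the median ratio to the DC90 mean was 5.74 for replicate 3 and 2.37 for replicate 1. Replicate 1 lay above every DC90 library for 43 of the 44. Without 9311 replicate 3, the median log2 fold change was -1.24 and all 44 were below 0. Most of the calls were lost then, and most were kept without 9311 replicate 1, each a fit with 1 library of 9311. Calls were also lost with DC90 libraries left out. Without DC90 replicates 1, 2 and 3, 16, 12 and 21 of the 44 kept the call.

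**Figure D3:**
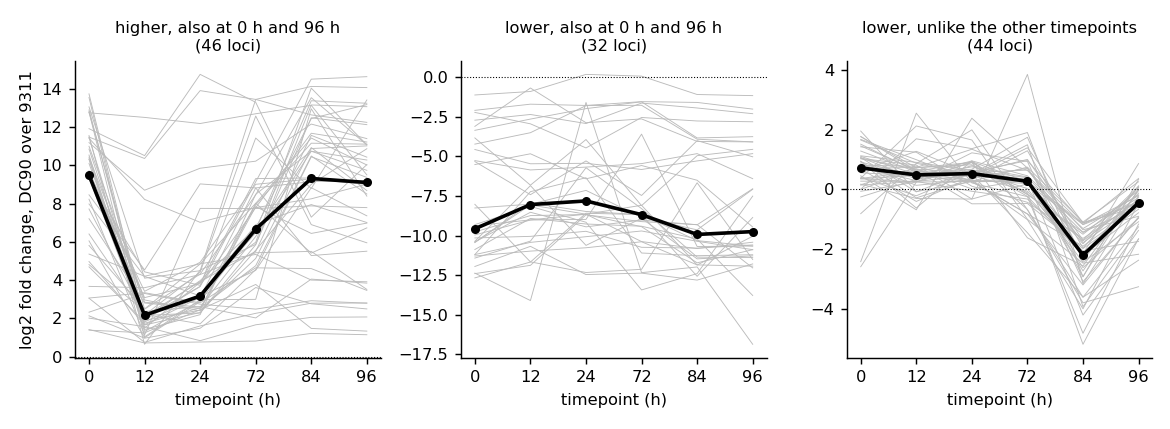
Log2 fold changes (DC90 over 9311) at the 6 timepoints for the 46 shared differences higher in DC90, the 32 lower in DC90, and the 44 recovery differences lower in DC90; grey lines are loci and the black line is their median. The recovery group lies above 0 until 72 h, reaches -2.21 at 84 h and stands at -0.45 at 96 h, while the shared group higher in DC90 is at 2.16 at 12 h. At 12 h, the 9311 libraries were read on 12, 14 and 13 of the 17 DC90-only loci.

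Receptors and regulators of defence and stress were among them. LOC_Os04g56430, annotated as cysteine-rich receptor-like protein kinase 6, had 16.6, 3.86 and 10.1 CPM in DC90 and 159 and 126 CPM in 9311, a log2 fold change of -3.81 (SE 0.65, adjusted p = 0.0015). Both 9311 libraries were far above all DC90 libraries, and the call held without any 1 library. Its mean level in DC90 was 0.873 FPKM before chilling, 13.7 FPKM at 72 h, 10.3 FPKM at 84 h and 4.38 FPKM at 96 h. In 9311 it was 1.65 FPKM before chilling, 18.9 FPKM at 72 h, 144 FPKM at 84 h and 42.5 FPKM at 96 h, so 9311 was highest at 84 h, and it was still above DC90 at 96 h (log2 fold change -3.27). The difference at 84 h departed from that of the other timepoints by -3.42 on the log2 scale (adjusted p = 0.017).

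LOC_Os05g41370, annotated as cysteine-rich receptor-like kinase 25, had 2.29, 1.63 and 1.80 CPM in DC90 and 6.06 and 11.0 CPM in 9311, a log2 fold change of -2.16 (SE 0.47, adjusted p = 0.023). It did not pass the test against the other timepoints (adjusted p = 0.069), and its call was lost without 9311 replicate 3 or any 1 of the DC90 libraries. These 2 were called among 49 tested kinases of this family (0.396% lower over all loci tested), a list chosen after values were seen, whose median was -0.14. Over all 517 tested receptor-like kinases, 2 were called and the median was -0.06.

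Of 87 tested WRKY transcription factors, regulators of defence and stress genes, 3 were called and all were lower in DC90, against 0.396% lower over all loci tested. LOC_Os03g21710 (WRKY70-like) had 2.72, 1.1 and 1.62 CPM in DC90 and 13.2 and 31.8 CPM in 9311, a log2 fold change of -3.62 (SE 0.69, adjusted p = 0.0055). Beyond this gene, the 2 others were named after their values were seen. LOC_Os05g25770, with the same annotation, had 43.0, 29.6 and 40.7 CPM in DC90 and 128 and 188 CPM in 9311, a log2 fold change of -2.07 (SE 0.36, adjusted p = 0.0021). LOC_Os09g25060, annotated as WRKY76, had 7.24, 6.29 and 12.5 CPM in DC90 and 34.0 and 62.8 CPM in 9311, a log2 fold change of -2.48 (SE 0.59, adjusted p = 0.042). The median of the 87 was -0.53, with 66 below 0, and it was -0.18 without 9311 replicate 3. None of the 3 calls was kept then, with adjusted p-values of 0.21, 0.11 and 0.86 in edgeR and log2 fold changes of -2.85, -1.76 and -1.97.

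Ethylene-responsive transcription factors gave 5 calls among 92 tested, all lower in DC90 (0.396% over all loci tested), with a median of -0.65 and 75 of the 92 below 0. LOC_Os01g21120 had 2.03, 2.51 and 3.75 CPM in DC90 and 7.58 and 34.6 CPM in 9311, a log2 fold change of -2.93 (SE 0.52, adjusted p = 0.0023). LOC_Os04g52090, annotated as factor 4 of the family, had 9.77 to 23.5 CPM in the 3 DC90 libraries and 44.1 and 166 CPM in 9311 (log2 fold change -2.63, adjusted p = 0.014). The other called members, LOC_Os01g58420, LOC_Os05g41780 and LOC_Os06g11860, had log2 fold changes from -1.44 to -1.32. In each of the 5, 9311 replicate 1 lay between the DC90 libraries and 9311 replicate 3. The list was chosen after values were seen, its median was -0.25 without 9311 replicate 3, and none of the 5 calls was kept then.

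NDR1/HIN1-like proteins, relatives of an Arabidopsis protein needed for resistance signalling, had 2 calls among 19 tested, both lower in DC90 (0.396% over all loci tested). The median of the list was -1.23, with 18 of the 19 below 0, and it was -0.55 without 9311 replicate 3. LOC_Os04g58090 (NDR1/HIN1-like protein 6) had 0.865, 1.38 and 1.22 CPM in DC90 and 2.63 and 25.7 CPM in 9311, a log2 fold change of -3.62 (SE 0.81, adjusted p = 0.025). This call rested on 9311 replicate 3 and was also lost without any 1 of the DC90 libraries. LOC_Os07g34720 (NDR1/HIN1-like protein 2) had 1.78, 1.82 and 1.71 CPM in DC90 and 5.49 and 6.24 CPM in 9311, a log2 fold change of -1.73 (SE 0.38, adjusted p = 0.024), with close values within each genotype, but without 9311 replicate 3 the adjusted p was 0.32. The list was also chosen after values were seen.

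LOC_Os01g65700, annotated as dirigent protein 19, a family known for guiding lignan and lignin coupling, had 1.18, 0.193 and 0.558 CPM in DC90 and 2.39 and 18.7 CPM in 9311, a log2 fold change of -4.01 (SE 0.84, adjusted p = 0.015). With the same annotation, LOC_Os11g10870 had a log2 fold change of -0.21 and was not called. LOC_Os03g47280, annotated as a Wiskott-Aldrich syndrome protein homolog, had 1.88, 1.19 and 2.02 CPM in DC90 and 7.30 and 24.3 CPM in 9311 (log2 fold change -3.21, SE 0.63, adjusted p = 0.0071). Both calls were lost without 9311 replicate 3 and without DC90 replicate 2, and that of LOC_Os01g65700 also without DC90 replicate 3. LOC_Os03g43880, annotated as patatin-like protein 3, a lipid acyl hydrolase, had 1.53, 4.06 and 2.93 CPM in DC90 and 3.82 and 82.9 CPM in 9311 (log2 fold change -3.94, SE 0.75, adjusted p = 0.0057). Replicate 1 of 9311 lay among the DC90 libraries there, and the call was lost without 9311 replicate 3 or DC90 replicate 1. It was chosen after its values were seen.

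LOC_Os03g60760, annotated as the SMR4 inhibitor of cyclin-dependent kinases, had 0.683, 0.248 and 0.767 CPM in DC90 and 1.78 and 8.61 CPM in 9311, a log2 fold change of -3.17 (SE 0.62, adjusted p = 0.0067). Another locus with this annotation, LOC_Os01g62584, had a log2 fold change of -0.18 (adjusted p = 1.0). LOC_Os01g14410, annotated as the early light-inducible protein HV58, a thylakoid protein made under excess light, had 0.622, 0.635 and 0.732 CPM in DC90 and 2.65 and 7.57 CPM in 9311, a log2 fold change of -2.94 (SE 0.47, adjusted p = 0.00068). Its DC90 libraries lay close together below both 9311 libraries. Its mean level in DC90 was 35.2 FPKM before chilling, 10.8 FPKM at 72 h, 0.722 FPKM at 84 h and 4.43 FPKM at 96 h, and in 9311 it was 38.2 FPKM before chilling, 2.48 FPKM at 72 h, 5.62 FPKM at 84 h and 3.44 FPKM at 96 h. The log2 fold change was 1.36 to 1.90 at the 3 timepoints of chilling and negative at 84 h, and its departure from the other timepoints was -3.99 on the log2 scale (adjusted p = 0.00028). Without 9311 replicate 3, neither LOC_Os03g60760 nor LOC_Os01g14410 was called.

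LOC_Os07g42590, annotated as F-box only protein 13, a likely adaptor for protein breakdown, had 25, 23.1 and 25.8 CPM in DC90 and 40.9 and 71.4 CPM in 9311, a log2 fold change of -1.19 (SE 0.24, adjusted p = 0.010). LOC_Os11g29710, another F-box protein, had 1.41, 1.1 and 3.80 CPM in DC90 and 11.4 and 28.1 CPM in 9311 (log2 fold change -3.23, SE 0.77, adjusted p = 0.044). Unlike LOC_Os07g42590, it is not among the named genes listed below as departing from the other timepoints. Of 553 tested E3 ubiquitin ligases and F-box proteins, 5 were lower and 1, LOC_Os12g19100 above, was higher in DC90, with a median of 0.02. Over all loci tested, 0.396% were called lower and 0.274% higher. The list was drawn by words of the annotation and does not hold the U-box locus LOC_Os12g21950 above, which was also higher. The calls of both F-box loci were lost without 9311 replicate 3.

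LOC_Os03g08100, annotated as 2-hydroxy-6-oxo-2,4-heptadienoate hydrolase, lies on chromosome 3 and was lower in DC90 with close values within each genotype. It had 2.88, 2.1 and 2.81 CPM in DC90 and 27.3 and 24.1 CPM in 9311, a log2 fold change of -3.30 (SE 0.44, adjusted p = 5.4e-05). It was lower in DC90 at all 6 timepoints by its mean level, for example 8.70 FPKM in DC90 and 25.8 FPKM in 9311 at 0 h, and 3.92 FPKM in DC90 and 31.2 FPKM in 9311 at 96 h. Its departure from the other timepoints was -1.65 (adjusted p = 0.076), so it belongs to neither group above.

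Further lower loci were named after their values were seen. LOC_Os03g29190, annotated as nucleoredoxin 1-1, a thioredoxin-like redox protein, had 64.1, 50.2 and 51.0 CPM in DC90 and 240 and 383 CPM in 9311 (log2 fold change -2.50, SE 0.51, adjusted p = 0.01). LOC_Os04g52540, annotated as argonaute 2, an effector of antiviral RNA silencing in Arabidopsis, had 12.8 to 17.2 CPM in the 3 DC90 libraries and 29.8 and 41.0 CPM in 9311 (log2 fold change -1.18, SE 0.22, adjusted p = 0.0035). LOC_Os03g44020, annotated as the auxin transport kinase PINOID, had 3.69, 5.24 and 3.71 CPM in DC90 and 5.96 and 38.4 CPM in 9311 (log2 fold change -2.40, SE 0.54, adjusted p = 0.028). None of these 3 was called without 9311 replicate 3, although replicate 1 lay above every DC90 library for each.

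On chromosome 12, a pair of neighbouring loci annotated as the mitochondrial AAA-ATPase ASD was lower in DC90 than in 9311 at 84 h. LOC_Os12g28137 had 0.0607, 0.0552 and 0.122 CPM in DC90 and 2.04 and 2.70 CPM in 9311, a log2 fold change of -4.83 (SE 0.56, adjusted p = 6.9e-06). LOC_Os12g28177 had 0.0759, 0.0552 and 0.122 CPM in DC90 and 3.41 and 3.12 CPM in 9311, a log2 fold change of -5.20 (SE 0.57, adjusted p = 3.1e-06). Their departures from the other timepoints were -4.61 (adjusted p = 0.00028) and -4.53 (adjusted p = 0.00032), and both calls held without any single library. At 24 h, in the chilling period, LOC_Os12g28137 averaged 3.31 FPKM in DC90 and 2.89 FPKM in 9311, and LOC_Os12g28177 averaged 5.11 FPKM in DC90 and 2.76 FPKM in 9311. At 0 h both were under 0.05 FPKM in DC90 (0.0452 and 0.0474 FPKM), against 0.303 and 0.360 FPKM in 9311. As the copies lie next to each other with 1 annotation, how reads were split between them is uncertain.

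**Figure D4:**
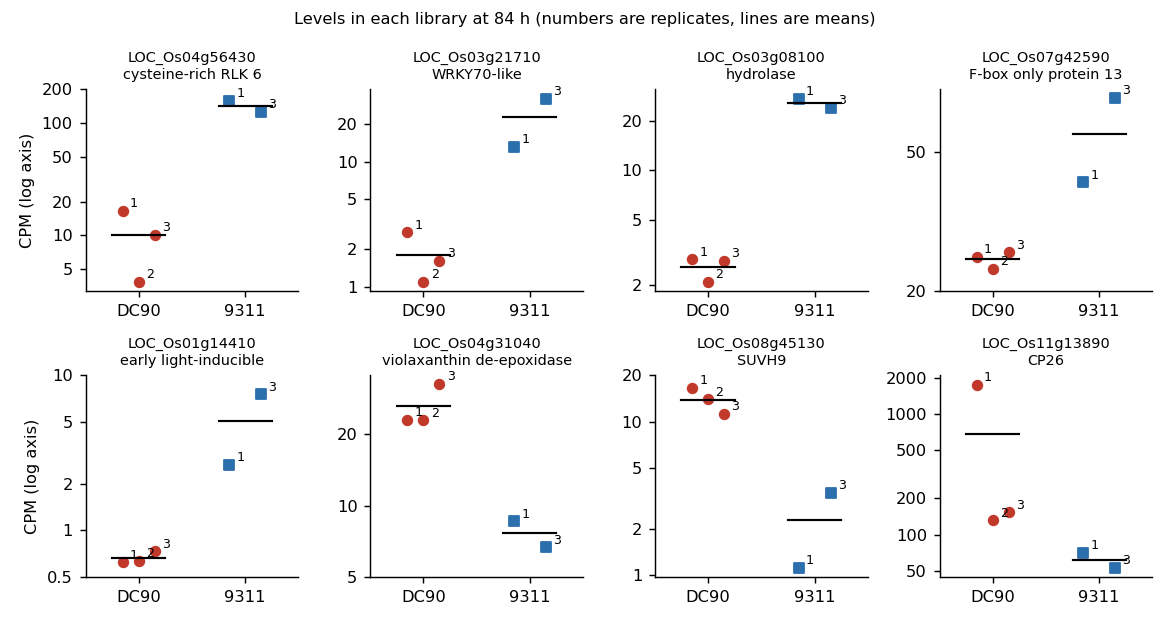
CPM (log axis) of 8 loci in each library at 84 h, DC90 on the left and 9311 on the right, with replicate numbers beside the points and lines at the means. The first 5 loci are lower in DC90, and replicate 3 of 9311 lies above replicate 1 in 3 of them. Violaxanthin de-epoxidase, SUVH9 and CP26 are higher in DC90, CP26 through DC90 replicate 1.

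Fewer loci were higher in DC90 at 84 h. LOC_Os04g31040, violaxanthin de-epoxidase, the thylakoid enzyme that makes zeaxanthin for heat dissipation, had 23.0, 22.9 and 32.7 CPM in DC90 and 8.58 and 6.67 CPM in 9311, a log2 fold change of 1.78 (SE 0.40, adjusted p = 0.027). Its mean level in DC90 was 8.27 FPKM at 0 h, 15.5 at 84 h and 9.14 at 96 h, and in 9311 it was 11.3 FPKM at 0 h, 4.40 at 84 h and 10.3 at 96 h. The departure from the other timepoints was 2.01 (adjusted p = 0.025). The libraries of the genotypes were well apart, but the call was lost without DC90 replicate 3 or either 9311 library. With the same annotation, LOC_Os01g51860 had 5.23 CPM in DC90 and 4.02 CPM in 9311 (log2 fold change 0.38) and was not called.

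LOC_Os08g45130, annotated as SUVH9, a histone methyltransferase-like protein known in Arabidopsis for RNA-directed DNA methylation, had 16.6, 14.0 and 11.2 CPM in DC90 and 1.11 and 3.44 CPM in 9311, a log2 fold change of 2.62 (SE 0.58, adjusted p = 0.024). LOC_Os03g63910, a chloroplastic pentatricopeptide repeat protein, a family that processes organelle RNA, had 40.0, 78.9 and 77.1 CPM in DC90 and 3.73 and 0.295 CPM in 9311, a log2 fold change of 5.01 (SE 1.19, adjusted p = 0.042). This locus is not among the recovery differences. LOC_Os03g63920, the next tested locus, had a log2 fold change of -1.19 (adjusted p = 0.40). The 2 calls were lost without DC90 replicates 1 or 2, and the second also without DC90 replicate 3 or 9311 replicate 3, the first without 9311 replicate 1.

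LOC_Os05g32860, with no described function, had 2.76, 1.68 and 3.10 CPM in DC90 and 0.0490 and 0.0422 CPM in 9311, a log2 fold change of 5.69 (SE 0.74, adjusted p = 3.7e-05) that held without any single library. In 9311 its mean was 46.1 FPKM at 72 h, 0.0540 at 84 h and 2.12 at 96 h, and in DC90 it was 43.8 FPKM at 72 h, 4.03 at 84 h and 2.43 at 96 h. The departure from the other timepoints was 5.66 (adjusted p = 0.00032), and against 0 and 96 h alone the adjusted p was 0.0019. LOC_Os10g21396, a nuclear locus annotated as the plastid NAD(P)H-quinone oxidoreductase subunit 1, had 0.470, 1.41 and 1.83 CPM in DC90 and 0.0327 and 0.0211 CPM in 9311. With 3 counts in 9311, the ratio of counts was 42.4 (95% exact binomial interval 14.3 to 208, counting error only). Reads of the plastid gene could be counted there, so this locus is uncertain. Its call (log2 fold change 5.35, adjusted p = 0.0059) was lost without either 9311 library.

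LOC_Os11g13890, *LHCB5*, which encodes the photosystem II antenna protein CP26, was the only called member of the antenna list. Over all loci tested, 0.274% were called higher. *LHCB5* is not among the recovery differences. It had 1750, 132 and 154 CPM in DC90 and 70.8 and 53.4 CPM in 9311, a log2 fold change of 3.45 (SE 0.80, adjusted p = 0.036), and DC90 replicate 1 decided the size. Without that library, the log2 fold change was 1.2 (adjusted p = 0.54), and the call was also lost without either 9311 library. The 8 antenna genes were all above 0, with log2 fold changes from 0.11 to 3.45 and a median of 0.50 (0.14 without 9311 replicate 3), while DESeq2 called 2 and limma 0 of them. The 4 tested genes of Rubisco small subunits and activase, which serve carbon fixation, had log2 fold changes from 1.11 to 2.47 and a median of 1.80 (1.27 without 9311 replicate 3), with 0 called by edgeR, DESeq2 or limma and 1 at an unadjusted p under 0.05. *RBCS2* (LOC_Os12g17600) had 1070, 70.0 and 652 CPM in DC90 and 138 and 76.9 CPM in 9311, which overlapped, with a log2 fold change of 2.47 (SE 1.22, adjusted p = 0.61). The summed leaf and root markers given above overlapped between the genotypes and ranged higher in DC90, and their part in these values was not tested. The leaf markers *LHCB1.1*, *LHCB1.2*, *RBCS2* and *RCA* are themselves antenna, Rubisco small subunit or activase genes, so their sum is no separate measure.

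The lists of cold and hormone genes gave few calls. Of 6 tested DREB1 factors, the cold-induced activators that head the CBF pathway, edgeR called 0, DESeq2 1 and limma 0, and 3 had an unadjusted p under 0.05. Their median was -2.11, and it was -0.05 without 9311 replicate 3. *DREB1E* (LOC_Os04g48350) had 1.75, 0.281 and 0.618 FPKM in DC90 and 1.27 and 20.3 FPKM in 9311 (log2 fold change -3.63, SE 1.12, adjusted p = 0.18), and *DREB1B* (LOC_Os09g35010) had 5.09, 3.81 and 6.67 FPKM in DC90 and 6.0 and 40.0 FPKM in 9311 (log2 fold change -2.18, adjusted p = 0.64). In both, 9311 replicate 1 lay among the DC90 libraries and replicate 3 stood far above.

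Of 13 tested jasmonate genes (JAZ repressors and synthesis enzymes), edgeR called 0, DESeq2 1 and limma 1, with 2 at an unadjusted p under 0.05 and a median of -0.20. *AOS2* (LOC_Os03g12500), allene oxide synthase of jasmonate synthesis, had 3.65, 0.911 and 1.42 FPKM in DC90 and 7.17 and 22 FPKM in 9311, a log2 fold change of -2.90 (SE 0.71, adjusted p = 0.057). Its groups did not overlap, and *AOS1* (LOC_Os03g55800) had a log2 fold change of -0.33. The 8 genes of abscisic acid synthesis and breakdown, 9 clade A PP2C phosphatases, 6 dehydrins with *LEA3*, 10 clock genes and 7 small heat shock genes with *HSP101* each had 0 called by edgeR, DESeq2 or limma. At an unadjusted p under 0.05 they had 1, 1, 1, 1 and 2 genes, in that order, and their medians were -0.25, -0.30, -1.13, 0.28 and -0.69. Without 9311 replicate 3, the same medians were 0.04, 0.18, 0.36, 0.23 and -0.16.

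**Figure D5:**
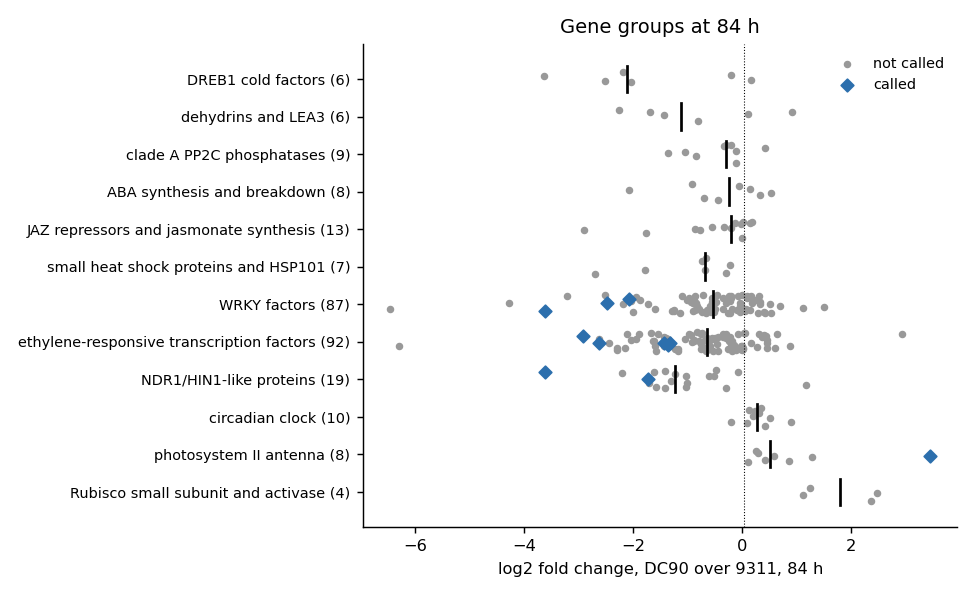
Log2 fold changes at 84 h (DC90 over 9311) of the tested members of 12 gene groups, with the number tested in brackets; grey points were not called, blue diamonds were called, short lines are medians and the dotted line is the median of all loci (0.03). DREB1 factors have the lowest median (-2.11) and Rubisco genes the highest (1.80), while calls are found among WRKY factors (3), ethylene-responsive factors (5), NDR1/HIN1-like proteins (2) and the antenna (1).

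Calls in other families are set beside the shares over all loci tested, 0.396% called lower and 0.274% called higher. Of 359 tested ribosomal proteins, 2 were called, both lower, with a median of 0.14, of 188 glycosyltransferases 2 were called, both lower, with a median of -0.28, and of 78 transposon proteins 1 was higher and 5 were lower, with a median of -0.12. No call was made by edgeR among 122 cytochrome P450 enzymes, 66 glutathione S-transferases, 125 MYB factors, 59 lipid transfer proteins or 53 expansins and xyloglucan endotransglucosylases. At an unadjusted p under 0.05 these had 6, 10, 10, 10 and 9 loci, DESeq2 called 0, 1, 1, 2 and 1, and limma 1, 0, 0, 0 and 0, in that order. Their medians were -0.10, -0.22, -0.15, -0.41 and -0.56, and without 9311 replicate 3 they were -0.23, 0.03, -0.08, -0.25 and -0.29.

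Among the 8 genes that the study discusses for the metabolism of abscisic acid, amino acids and sugars during chilling or recovery, edgeR, DESeq2 and limma called 0, and 1 had an unadjusted p under 0.05. *NCED3* (LOC_Os03g44380), the rate-limiting dioxygenase of abscisic acid synthesis, had 1.02, 1.19 and 2.34 CPM in DC90 and 1.91 and 3.86 CPM in 9311 (log2 fold change -0.92, SE 0.45, adjusted p = 0.60), with overlapping libraries. *NCED5* (LOC_Os12g42280) had 2.90, 9.05 and 5.93 CPM in DC90 and 3.43 and 16 CPM in 9311 (log2 fold change -0.71, SE 0.54), and *ABA8ox1* (LOC_Os02g47470), which breaks abscisic acid down, had 22.6, 18.4 and 27.4 CPM in DC90 and 13.6 and 27.7 CPM in 9311 (log2 fold change 0.15, SE 0.54). The genotypes overlapped for all 3.

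LOC_Os09g29710, annotated as an EG45-like protein, had 47.1, 6.27 and 16.3 CPM in DC90 and 77.0 and 62.4 CPM in 9311 (log2 fold change -1.58, SE 0.67, adjusted p = 0.46). Glutamine synthetase (LOC_Os04g56400) had 341, 115 and 316 CPM in DC90 and 309 and 268 CPM in 9311, and galactinol synthase 2 (LOC_Os03g20120) had 17.6, 8.81 and 15.4 CPM in DC90 and 14.3 and 12.0 CPM in 9311. Raffinose synthase (LOC_Os01g07530) had 12.7, 11.8 and 22.1 CPM in DC90 and 16.1 and 11.4 CPM in 9311, and aldehyde dehydrogenase 2C4 (LOC_Os01g40870) had 11.0, 3.17 and 5.49 CPM in DC90 and 3.2 and 7.68 CPM in 9311. The last 4 had log2 fold changes from -0.17 to 0.27, and their sign turned when 1 library was left out.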

How the data were processed

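Whole plants of DC90 and 9311 were sequenced at 6 timepoints in 35 libraries. According to the study's methods, the authors mapped reads with HISAT2 to Release 7 of the Rice Genome Annotation Project, whereas the submitters' processing notes name Bowtie 0.12.2 and the mouse build mm8; the methods and the labels also name different library kits. The counting tool and the treatment of multiply mapped reads are not given in the sources used here. The deposited table holds, per the file headers, read counts and FPKM made by the authors for 57778 loci, 1816 of them added by the authors and without coordinates here; chromosomes were read from locus IDs. Annotations are those of the table.

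Loci with a mean FPKM of at least 0.5 over all libraries (22961) were tested. Counts of all 35 libraries were fitted as 12 groups with edgeR 4.0.16 (R 4.3.3, TMM, quasi-likelihood test, Benjamini-Hochberg adjustment), which shares 1 estimate of the spread. Further contrasts set the 84 h difference against that at 0 h and against the mean of the 5 other timepoints. Alternatives used DESeq2 1.42.0, limma 3.58.1 on log2(FPKM + 1), other filters, a replicate block and leaving out each 84 h library. Scripts were tested on simulated data. Tables were made with Python 3.11.15, pandas 2.3.3, numpy 2.4.6 and scipy 1.17.1, and plots with matplotlib 3.10.9. Totals at 84 h were 28004101 to 51890451 counts (28004101 to 68927044 in the series), and intervals and floors (3 counts per library) cover counting error only. A library counts as read on a locus above 3 counts. Genotype-only loci had at least 2 CPM in all 6 libraries of one line and at most 3 counts in the other at 0 and 96 h.

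Named genes were called loci with non-overlapping libraries and at least 1 FPKM in the higher group: among those with a described function, the 8 largest rises and falls on and off chromosome 12. To these were added, described or not, the 5 called loci with the smallest p against the other timepoints, called members of the lists given by locus, and 8 genes of the study. The comparison, the members and the lists were chosen with earlier results of these data known.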

Additional observations from a re-analysis of the deposited data

Results flagged for a closer look

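The genotype difference at 84 h departed from that at 0 h for 192 loci and from the mean of the 5 other timepoints for 172 loci, by a test of the difference itself. Among the named genes higher in DC90, the departure from the other timepoints was 5.66 on the log2 scale for LOC_Os05g32860, 5.32 for LOC_Os10g21396, 2.52 for SUVH9 (LOC_Os08g45130) and 2.01 for violaxanthin de-epoxidase (LOC_Os04g31040). For the pair of AAA-ATPase ASD loci it was -4.61 (LOC_Os12g28137) and -4.53 (LOC_Os12g28177). It was -4.20 for SMR4 (LOC_Os03g60760), -3.99 for the early light-inducible protein (LOC_Os01g14410), -3.97 for dirigent protein 19 (LOC_Os01g65700), -3.59 for NDR1/HIN1-like protein 6 (LOC_Os04g58090) and -3.42 for cysteine-rich receptor-like kinase 6 (LOC_Os04g56430). It was -3.28 for the Wiskott-Aldrich syndrome protein homolog (LOC_Os03g47280), -3.26 for WRKY70-like (LOC_Os03g21710) and -1.68 for F-box only protein 13 (LOC_Os07g42590).

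Counts were also found where the 0 and 96 h libraries of 9311 had at most 3. Of the 17 loci read only in DC90 at 0 and 96 h, replicates 1, 2 and 3 of 9311 at 12 h were read on 12, 14 and 13, replicates 2 and 3 at 24 h on 13 and 11, and replicate 2 at 72 h on 9. The median level over the 17 loci was 0.454, 2.82 and 0.700 CPM in those 12 h libraries, and in DC90 at 12 h it was 8.47 to 11.4 CPM. The 9311 libraries at 84 h, with 1 of 17 each, did not share this.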

How the results depend on the processing

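The 154 calls at 84 h numbered 151 with DESeq2 size factors, 174 without the filter, 155 by adjusted p alone and 137 with the replicate block, and of the 154 calls 151, 140, 154 and 133 were shared with size factors, no filter, DESeq2 and the block. DESeq2 gave 379 calls, limma 258, the 5 libraries of 84 h alone 59 (46 of them among the 154), and the thresholds of 2 and 0.001 gave 40. Leaving out single libraries gave 63 to 309. Loci that departed from 0 h (192) numbered 117 without the filter, 649 by DESeq2, 96 with the replicate block and 5 to 497 with single libraries left out. Loci that departed from the other timepoints (172) numbered 140 with size factors, 66 without the filter, 823 by DESeq2, 155 with the replicate block, 10 to 527 with single libraries left out, and 3 against 0 and 96 h only, an alternative chosen after seeing the data. The cause of these changes was not tested. The deviations of same-numbered libraries correlated at 0.161 and 0.011 at 84 h, at 0.281, 0.549 and 0.303 at 12 h, and from -0.286 to 0.278 at the other timepoints, so replicate numbers were not taken as pairs, not every pair being above 0.1.

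Of the 35 named genes that were called, 0 changed sign under any setting and 9 were called under every setting. With the fit of 84 h alone set aside, 16 were called under every setting, these 9 among them. Signs turned for 6 of the 8 genes of the study, none of them called. With single libraries left out, aldehyde dehydrogenase ran from -0.32 (without DC90 replicate 1) to 1.04, with -0.23 without 9311 replicate 1; glutamine synthetase from -0.42 to 0.19 (without DC90 replicate 2); galactinol synthase from -0.12 (without DC90 replicate 1) to 0.32, with -0.04 without 9311 replicate 3; raffinose synthase from -0.17 (without DC90 replicate 3) to 0.45, with -0.05 without 9311 replicate 3; *ABA8ox1* from -0.28 (without 9311 replicate 1) to 0.75, with -0.01 without DC90 replicate 3; and *NCED5* from -1.43 to 0.79 (without 9311 replicate 3), all on the log2 scale. With 2 libraries of 9311, 55 of the 154 calls were kept without replicate 3, and depth limits loci near 3 counts per library.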
